A study of Homo sapiens with 24 samples.

Results

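The effect of the PD-L1 siRNA on RNA levels without IFNγ was measured in libraries labelled A498, a line from a clear cell renal cell carcinoma (ccRCC). The 6 libraries compared, of 24 in the series, were chosen from their labels alone: 3 from cells given PD-L1si, a pool of siRNAs against the transcript of CD274, the gene that encodes PD-L1, and 3 from cells given Cnsi, a pool that targets no gene. Each siRNA was used at 20 nM with a lipid reagent, and neither group received IFNγ, which other groups were given at 50 ng/mL for 24 h after 24 h of transfection. The whole series has 4 groups of 3 libraries (Cnsi and PD-L1si, each with and without IFNγ) for each of 2 lines, A498 and 786-O, and the sample labels call the silenced cells a knockout where the methods describe siRNA. The RNA methods list 3 groups without PD-L1si alone, whereas the labels give 4, and the amount of RNA used per library differs between these sources. All comparisons rest on polyA RNA from whole cultures, in which fewer cells expressing a gene and less RNA per cell cannot be told apart. In a check of genes that differ between the lines, 24 of 24 libraries, 12 of 12 labelled A498 among them, went against their line label, so the libraries are called by their label and the line itself is not taken as known. Nothing in the labels says that the 3 libraries of a group came from separate cultures, so p-values measure the spread between these libraries, which may be technical. One siRNA pool per target was used, and effects of CD274 loss cannot be told apart from effects of the pool on other transcripts. The libraries held 22018085 to 25884205 counts, of which 4.32 to 5.45% fell on the 10 most abundant genes.

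PD-L1 is a membrane ligand that binds PD-1 on T cells and restrains them. Its transcription is raised by IFNγ through the JAK kinases and IRF1, and also by NF-κB, the transcription factor family downstream of TNF receptors. Clear cell renal carcinomas usually lose VHL, which leaves hypoxia-inducible factors active and raises glucose transport and lipid storage. Tumour cells of this kind often secrete chemokines and IL-6 and express interferon-stimulated genes without added cytokine.

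Log2 fold changes are PD-L1si against Cnsi, ± SE, and a gene was called when its adjusted p from edgeR was under 0.05 and its log2 fold change beyond 0.5, up or down. Markers of most other cell types were nearly absent. Of 10 T and NK cell markers 7 were in the table, 4 of them at 0 in all 6 libraries, PTPRC, CD2, TRAC and PRF1, and their counts summed to 0, 3 and 4 with Cnsi and 0, 0 and 0 with PD-L1si. In the wider T and NK cell list CCL5, which tumour cells also express, gave 30, 29 and 31 counts with Cnsi and 18, 13 and 29 counts with PD-L1si and was called lower (-0.67 ± 0.25), a call lost with most single libraries left out, and CD4 gave 6, 1 and 4 counts with Cnsi and 9, 3 and 12 counts with PD-L1si. The 4 endothelial markers summed to 1, 1 and 2 counts with Cnsi and 1, 2 and 0 with PD-L1si, with CDH5 at 0 throughout. In the wider list CLDN5 gave 5, 5 and 9 counts with Cnsi and 2, 2 and 3 counts with PD-L1si and ESAM 6, 6 and 11 counts with Cnsi and 9, 5 and 9 counts with PD-L1si. Markers of myeloid and B cells summed to 23, 19 and 25 counts with Cnsi and 24, 23 and 23 with PD-L1si, the most abundant being CSF1R (8, 8 and 9 counts with Cnsi and 12, 12 and 8 counts with PD-L1si), and ITGAX gave 5, 5 and 8 counts with Cnsi and 1, 3 and 6 counts with PD-L1si. Fibroblast markers summed to 176, 180 and 198 counts with Cnsi and 362, 299 and 364 with PD-L1si. LUM, a matrix proteoglycan, made up most of this, with 117, 121 and 130 counts with Cnsi and 264, 230 and 254 counts with PD-L1si (0.93 ± 0.10), while DCN gave 0, 0 and 0 counts with Cnsi and 1, 0 and 0 with PD-L1si. RGS5, from the wider list, was called higher (1.14 ± 0.11), and THY1 had -0.14 ± 0.28. The part of such cells in the results was not tested. The renal factors PAX8 and PAX2 were present in every library, with 4945, 4925 and 5012 counts of PAX8 with Cnsi and 4094, 3527 and 4191 with PD-L1si.

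CD274 (ENSG00000120217.14, chr9:5450503-5470566, plus strand, GRCh38) gave 100, 138 and 144 counts with Cnsi and 23, 24 and 26 counts with PD-L1si. These are 3.99, 5.49 and 5.74 CPM with Cnsi and 0.810, 1.01 and 0.926 CPM with PD-L1si, where CPM stands for counts relative to library size after TMM scaling. Every PD-L1si library lay below every Cnsi library. Its log2 fold change was -2.47 ± 0.16 (SE, 3 libraries per group), with adjusted p = 6.46e-15 by edgeR, adjusted over all genes tested. Of the 12 genes tested within 500 kb of CD274, itself among them, PDCD1LG2, which encodes the second PD-1 ligand PD-L2, fell by 2.02 on the log2 scale (24, 29 and 28 counts with Cnsi and 8, 6 and 7 counts with PD-L1si, adjusted p = 2.95e-06). The lncRNA ENSG00000286162, which lies on the opposite strand across part of CD274, fell by 0.59 on the log2 scale. Its value is less certain, because the counting used the forward strand while the library kit usually yields the reverse one. Whether reads of CD274 were counted for it was not tested. The nearby JAK2, PLGRKT, RIC1 and ERMP1 were not called.

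The sequence before the start of CD274 is shown because it holds the motif families that mark interferon targets, with 1 match of each motif in capitals. The first carries TTTCNNTTTC, the interferon-stimulated response element (ISRE), and the second TTCNNNGAA, the gamma-activated site (GAS). A second ISRE that overlaps the first is not marked.
CD274, chr9:5450309-5450368, plus strand: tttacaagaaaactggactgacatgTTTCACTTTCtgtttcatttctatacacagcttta
CD274, chr9:5450392-5450450, plus strand: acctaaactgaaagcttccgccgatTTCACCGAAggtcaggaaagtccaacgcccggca

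**Figure D1:**
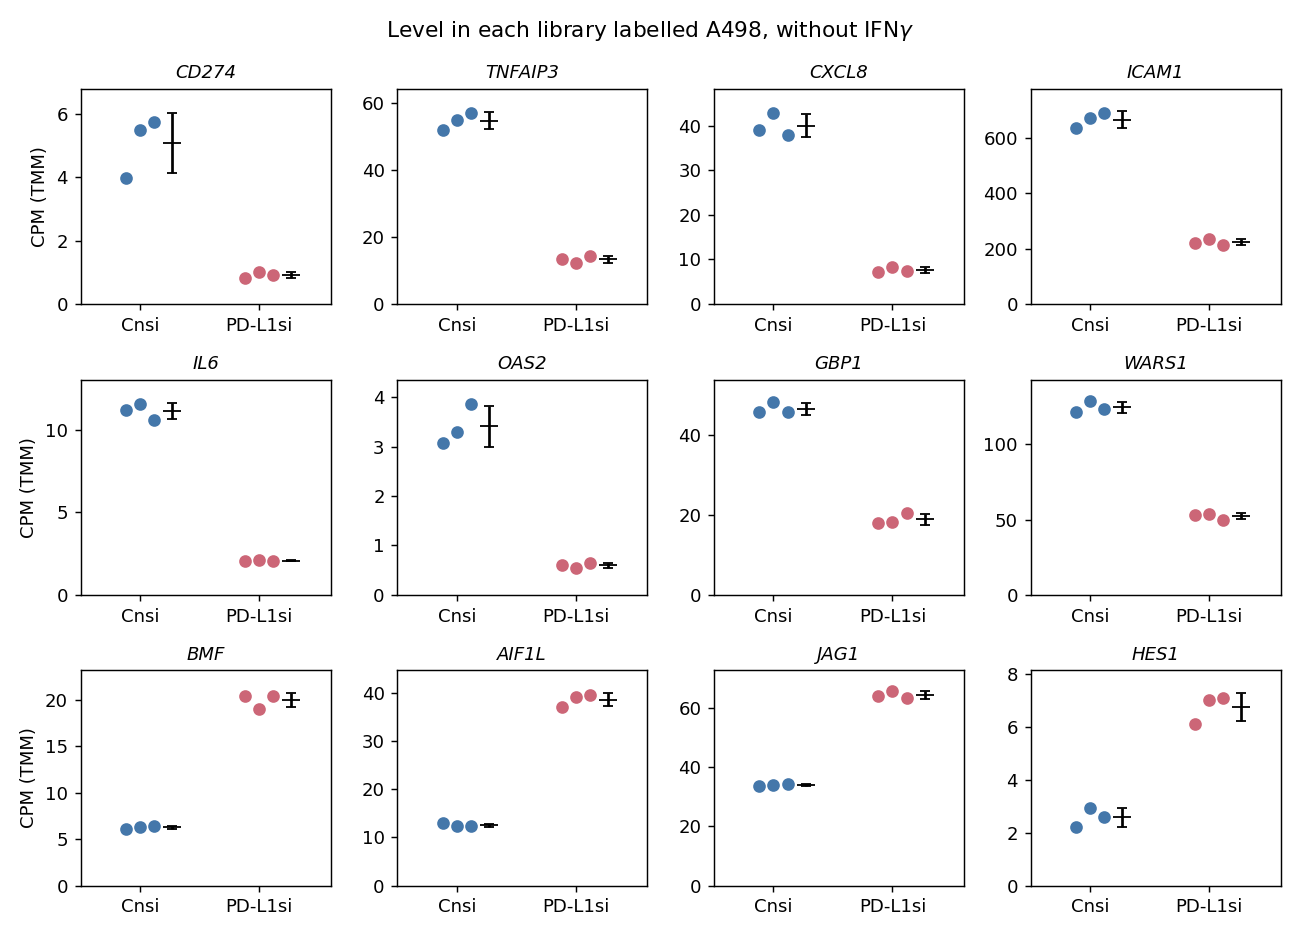
Level of 12 genes in each library labelled A498 without IFNγ, in CPM after TMM scaling, from 0, with Cnsi libraries in blue and PD-L1si libraries in red, and the mean ± SD of 3 libraries beside each group. CD274, TNFAIP3, CXCL8, ICAM1, IL6, OAS2, GBP1 and WARS1 were lower in every PD-L1si library than in any Cnsi library, and BMF, AIF1L, JAG1 and HES1 were higher. Apart from the target CD274, these were taken from genes called, so the separation is no added support.

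Of 20916 genes tested, 1773 were called (8.48%), 601 higher (2.87%) and 1172 lower (5.6%). The median log2 fold change over all genes tested was -0.00311. Beyond a log2 change of 1, 181 genes were higher and 372 lower, and beyond 2, 40 were higher and 63 lower. Protein-coding genes made up 13846 of those tested, with 380 higher and 874 lower, and lncRNAs 4776, with 162 higher and 227 lower. Among the genes called lower were cytokines, NF-κB targets, interferon-stimulated genes and genes of the ATF4 response.

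**Figure D2:**
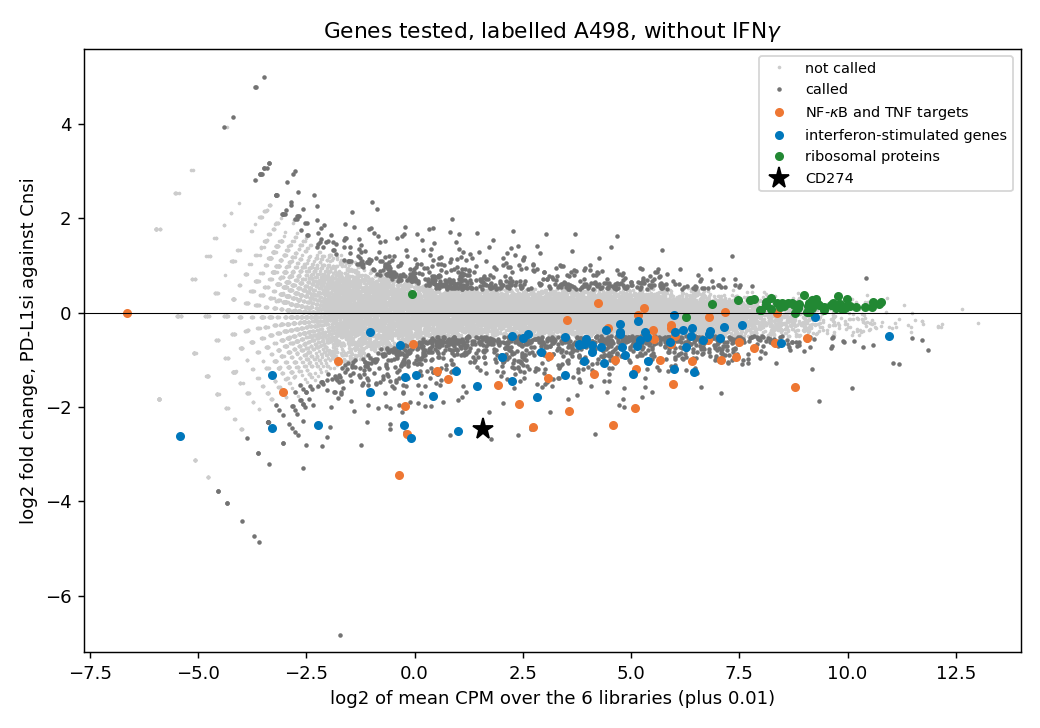
Log2 fold change of each gene tested, PD-L1si against Cnsi, against the log2 of its mean CPM over the 6 libraries plus 0.01. Grey points are genes, darker where called; members of the NF-κB and TNF list (orange) and the interferon list (blue) lie mostly below 0, ribosomal proteins (green) lie close to 0 with a median of 0.16, and the star is CD274 at -2.47.

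Targets of NF-κB and TNF signalling fell. 30 of 45 list members tested were called lower (66.7%, against 5.6% of all genes) and 0 higher by edgeR. At an unadjusted p under 0.05, 1 was higher and 37 lower, with 0 higher by DESeq2 and a median of -0.94 against -0.00311 over all genes. This list and those below were written with earlier results of other contrasts of these data known, which may have raised such shares. The summed level of the list was 4320, 4430 and 4470 CPM with Cnsi and 2720, 2780 and 2710 CPM with PD-L1si. TNFAIP3, which encodes A20, an inhibitor of the pathway that it also responds to, was at 52.1, 55.0 and 57.1 CPM with Cnsi and 13.3, 12.3 and 14.3 CPM with PD-L1si. Its log2 fold change was -2.03 ± 0.06 (adjusted p = 1.51e-23). ICAM1, the adhesion ligand of leukocyte integrins, was at 634, 673 and 691 CPM with Cnsi and 221, 236 and 214 CPM with PD-L1si, a log2 fold change of -1.57 ± 0.04 (adjusted p = 4.22e-24). TNFRSF9, the costimulatory receptor 4-1BB, stood at 91.6, 95.7 and 91.9 CPM with Cnsi and 31.9, 35.2 and 31.2 CPM with PD-L1si, a change of -1.51 ± 0.05. The libraries of the groups did not overlap for these genes. They were named as called members with the smallest p, so this separation is no added support. The neutrophil chemoattractant CXCL8 was at 39.1, 42.9 and 37.9 CPM with Cnsi and 7.22, 8.42 and 7.37 CPM with PD-L1si (-2.39 ± 0.08), and its relative CXCL1 was at 18.5, 21.0 and 17.7 CPM with Cnsi and 4.26, 4.88 and 4.45 CPM with PD-L1si (-2.08 ± 0.09). IL6, which encodes the cytokine interleukin-6, was at 11.2, 11.6 and 10.6 CPM with Cnsi and 2.04, 2.11 and 2.06 CPM with PD-L1si, a change of -2.42 ± 0.11 (adjusted p = 1.48e-19). The acute-phase gene SAA1 was at 14.3, 13.4 and 14.6 CPM with Cnsi and 3.38, 3.16 and 3.21 CPM with PD-L1si (-2.12 ± 0.10). CCL20 was at the low end of the list and gave 35, 38 and 33 counts with Cnsi and 6, 4 and 0 counts with PD-L1si, a fitted change of -3.44 ± 0.37. At the other end, CX3CL1, the membrane chemokine fractalkine, had a change of 0.20 ± 0.06 and was not called. The adaptor TRAF1 fell by 1.39 on the log2 scale, and BIRC3, an inhibitor of apoptosis that takes part in TNF receptor signalling, had a change of -1.01 ± 0.05 (adjusted p = 2.34e-18).

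Stretches of 60 bases before the starts of 4 of these genes are shown since they carry the κB motif, searched on both strands, with 1 match of each in capitals within the strand of the gene. A second match in TNFAIP3 and an overlapping one on the other strand in CXCL1 are left in lower case or partly so. The motif was also found for BIRC3 but not for ICAM1, and for CXCL8 and TRAF1 no match was found or no window was available.
TNFAIP3, chr6:137867167-137867226, plus strand: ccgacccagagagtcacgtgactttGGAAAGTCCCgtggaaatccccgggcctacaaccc
CXCL1, chr4:73869289-73869348, plus strand: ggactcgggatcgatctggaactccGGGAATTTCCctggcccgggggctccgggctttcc
IL6, chr7:22727102-22727161, plus strand: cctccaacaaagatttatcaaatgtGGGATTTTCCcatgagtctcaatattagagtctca
CCL20, chr2:227813738-227813797, plus strand: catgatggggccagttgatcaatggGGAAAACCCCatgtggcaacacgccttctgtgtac

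The κB motif was in the window from 250 bases before to 50 after the start in 12.9% of the 11158 coding genes with a RefSeq promoter (GRCh38.p14) among the 13837 considered here, a few tested genes having been left out. It was in 18.9% of the 667 lowered genes and in 9.97% of the 291 raised genes with such a window. Of the list members called lower, 13 of 22 held it (59.1%), and of the members not called lower, 5 of 14 (35.7%). These matches describe the letters only, and binding was not tested.

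Interferon-stimulated genes also fell without any IFNγ being given. Of 64 tested, 43 were called lower (67.2%, against 5.6% of all genes) and 0 higher by edgeR. At an unadjusted p under 0.05, 0 were higher and 60 lower, with 0 higher by DESeq2 and a median of -0.69. Their summed level was 5790, 5900 and 5870 CPM with Cnsi and 4220, 4290 and 4120 CPM with PD-L1si. The OAS genes encode enzymes that sense double-stranded RNA and activate RNase L. OAS1 was at 10.6, 11.8 and 10.4 CPM with Cnsi and 3.45, 3.29 and 2.81 CPM with PD-L1si (-1.78 ± 0.09), and OAS2 at 3.07, 3.30 and 3.87 CPM with Cnsi and 0.599, 0.547 and 0.641 CPM with PD-L1si (-2.50 ± 0.17, adjusted p = 4.04e-14). OAS3 was at 85.7, 86.8 and 93.8 CPM with Cnsi and 39.1, 40.6 and 37.3 CPM with PD-L1si, a change of -1.19 ± 0.05 (adjusted p = 2.83e-20). GBP1, a GTPase of cell-autonomous defence, was at 45.7, 48.4 and 45.7 CPM with Cnsi and 18.1, 18.1 and 20.5 CPM with PD-L1si (-1.30 ± 0.05, adjusted p = 5.30e-20). WARS1, the tryptophanyl-tRNA synthetase that IFNγ induces, was at 121, 128 and 124 CPM with Cnsi and 53.3, 54.0 and 49.8 CPM with PD-L1si, a change of -1.25 ± 0.04 (adjusted p = 3.09e-22). MX2, which restricts viral entry to the nucleus, was at the low end of the list and gave 31, 45 and 45 counts with Cnsi and 7, 8 and 5 counts with PD-L1si. CXCL10, the chemokine that draws CXCR3-bearing T cells, gave 34, 32 and 39 counts with Cnsi and 7, 7 and 7 counts with PD-L1si, a change of -2.39 ± 0.27. TRIM22, at the upper end, had -0.042 ± 0.05 and was not called.

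Windows of 3 of these genes carry the ISRE, searched on both strands, with 1 match of each in capitals within the strand of the gene. The OAS3 window searched holds a second ISRE outside the stretch shown. That of OAS1 held none, and for OAS2, MX2 and WARS1 no match was found or no window was available.
OAS3, chr12:112938437-112938496, plus strand: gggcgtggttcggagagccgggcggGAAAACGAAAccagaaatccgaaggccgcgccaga
GBP1, chr1:89065301-89065360, minus strand: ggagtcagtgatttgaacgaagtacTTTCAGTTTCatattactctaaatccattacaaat
CXCL10, chr4:76023684-76023743, minus strand: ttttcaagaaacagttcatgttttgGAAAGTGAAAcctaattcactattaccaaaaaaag

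The ISRE was in 2.95% of all coding promoters matched, in 6.45% of those of lowered genes and in 3.09% of those of raised genes. Within the interferon list it was in 21 of 35 promoters of members called lower (60%) and in 11 of 13 of those not called lower (84.6%). The GAS motif was in 6.52% of all, 7.05% of the lowered and 5.84% of the raised promoters.

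A few genes of the pathway that carries the IFNγ signal were called. Among 26 genes of the receptor and the JAK-STAT module 4 were called lower (15.4%, against 5.6% of all genes) and 0 higher. At an unadjusted p under 0.05, 3 were higher and 16 lower, with a median of -0.21, and DESeq2 called 3 lower and 0 higher. The called genes were IRF1 (-0.86), IRF7 (-1.34), STAT5A (-1.40) and SOCS2 (-0.69), with log2 fold changes in parentheses. IRF1, a transcription factor that IFNγ induces early, was at 56.3, 59.2 and 60.6 CPM with Cnsi and 32.0, 33.3 and 31.9 CPM with PD-L1si. SOCS2 gave 25, 30 and 24 counts with Cnsi and 14, 20 and 18 counts with PD-L1si and lost its call by DESeq2 (-0.68, adjusted p = 0.126) and when single libraries were left out. STAT2, a signal transducer, had -0.44 ± 0.04, JAK2 0.13 ± 0.10, and IFNGR1, the ligand-binding receptor chain, -0.097 ± 0.06, none of them called. CISH stood at the upper end with 0.47 ± 0.09. In antigen presentation, 6 of 32 were called lower (18.8%, against 5.6% of all genes) and 0 higher. At an unadjusted p under 0.05, 1 was higher and 22 lower, with 0 higher by DESeq2 and a median of -0.26. PSMB9, a subunit of the immunoproteasome, was at 18.7, 18.7 and 20.0 CPM with Cnsi and 8.42, 9.10 and 7.76 CPM with PD-L1si, and the peptide transporter TAP1 at 107, 109 and 110.0 CPM with Cnsi and 63.1, 65.2 and 63.4 CPM with PD-L1si. Their changes were -1.19 ± 0.08 and -0.77 ± 0.04. The loading chaperone TAPBP had -0.61 ± 0.04 and HLA-F -0.59 ± 0.06. NLRC5, which activates the class I genes, had 0.34 ± 0.06 and was not called. HLA-DPA1, at the low end, gave 1, 2 and 5 counts with Cnsi and 0, 0 and 0 counts with PD-L1si, too few for a fold, and its call was lost without Cnsi replicate 3.

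Of 19 ligands and receptors of immune checkpoints, 3 were called lower, namely CD274, PDCD1LG2 and ICOSLG, and 1 higher, TNFSF9, with a median of -0.33. That makes 15.8% lower and 5.26% higher, against 5.6% and 2.87% of all genes. ICOSLG, the ligand of the costimulator ICOS, was at 4.15, 4.17 and 4.27 CPM with Cnsi and 1.94, 2.02 and 2.03 CPM with PD-L1si (-1.07 ± 0.15). TNFSF9, the ligand of 4-1BB, was at 56.7, 54.1 and 51.6 CPM with Cnsi and 82.6, 85.2 and 81.4 CPM with PD-L1si, a change of 0.62 ± 0.05 (adjusted p = 1.05e-12). The ligand thus rose in libraries where its receptor TNFRSF9 fell. Among 16 genes that control PD-L1 stability and trafficking, 0 were called by edgeR (5 higher and 3 lower at an unadjusted p under 0.05, 0 by DESeq2). CMTM4, which protects PD-L1 from degradation, had 0.38 ± 0.04, and B3GNT3 gave 3, 3 and 7 counts with Cnsi and 1, 3 and 0 counts with PD-L1si.

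**Figure D3:**
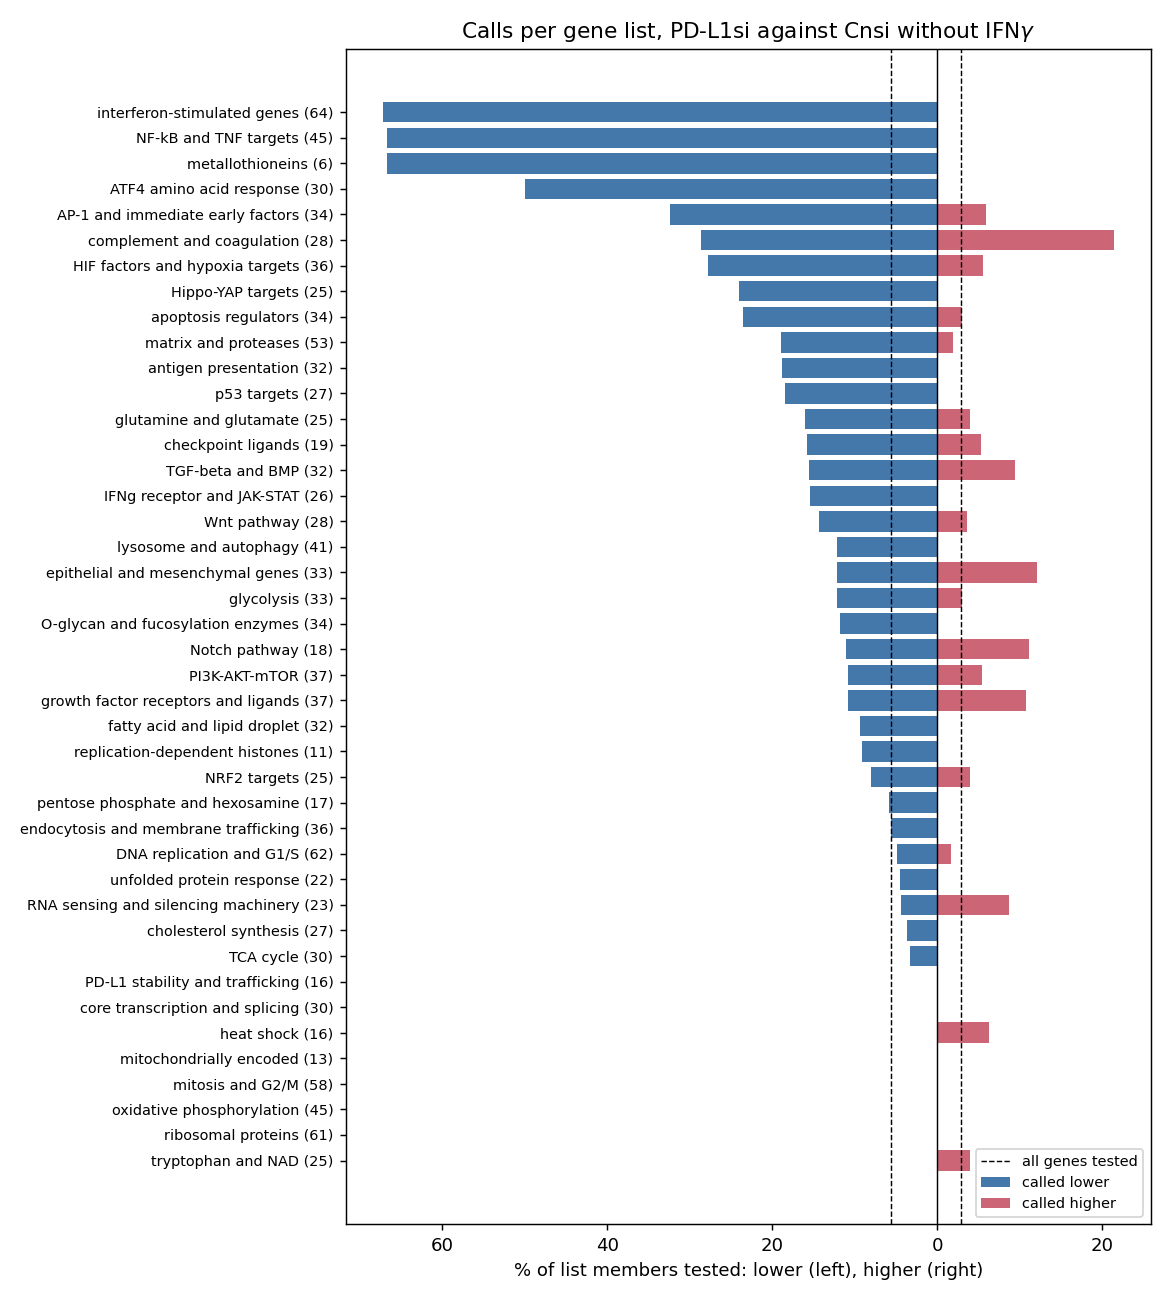
Share of the members tested of each gene list that was called lower (bars to the left of 0) or higher (bars to the right), in percent, with the number tested beside each name and dashed lines at the shares of all genes tested, 5.6% lower and 2.87% higher. Apart from lists of cell type markers, the interferon list (67.2% lower), the NF-κB and TNF list and the metallothioneins (66.7% each) and the ATF4 list (50%) reach furthest to the left.

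Genes of the amino acid response, which the transcription factor ATF4 drives when amino acids or haem run low, fell as well. Of 30 tested, 15 were called lower (50%, against 5.6% of all genes) and 0 higher by edgeR. At an unadjusted p under 0.05, 1 was higher and 29 lower, with 0 higher by DESeq2 and a median of -0.51. TRIB3, a pseudokinase that restrains AKT, was at 337, 334 and 334 CPM with Cnsi and 174, 175 and 169.5 CPM with PD-L1si (-0.96 ± 0.04, adjusted p = 2.83e-20). The secreted glycoprotein gene STC2 was at 241, 266 and 262 CPM with Cnsi and 125, 123 and 116 CPM with PD-L1si (-1.08 ± 0.05). DDIT3, which encodes CHOP, was at 38.8, 43.3 and 42.1 CPM with Cnsi and 21.8, 19.9 and 19.9 CPM with PD-L1si, a change of -1.01 ± 0.06 (adjusted p = 6.62e-17). GDF15, a circulating stress cytokine, was at 243, 262 and 260.5 CPM with Cnsi and 134, 131 and 119 CPM with PD-L1si (-0.998 ± 0.05). ALDH1L2, a mitochondrial folate enzyme, had the lowest change of the list, -1.14 ± 0.11, and VLDLR the highest, 0.40 ± 0.04, which was not called. In the unfolded protein response 1 of 22 was called lower (4.55%, against 5.6% of all genes). At an unadjusted p under 0.05, 18 were lower and 1 higher, with a median of -0.28. The called gene was HYOU1 (-0.51), an endoplasmic reticulum chaperone whose call was lost with other filters, and DNAJB9 had 0.30 ± 0.06. Of 16 heat shock genes 1 was called higher (6.25%, against 2.87% of all genes), DNAJB4 (0.61), and HSPB8 had -0.44 ± 0.04. At an unadjusted p under 0.05 these genes had 3 higher and 7 lower, with a median of -0.094. Of 27 p53 targets 5 were called lower (18.5%, against 5.6% of all genes). Among them were GDF15, GADD45A (-0.65), BBC3 (-0.57) and TNFRSF10B (-0.54), while TP53I3 had 0.46 ± 0.19. Metallothioneins, small proteins that bind zinc and copper, fell in 4 of 6 members tested (66.7%, against 5.6% of all genes): MT1X (-1.21), MT2A (-0.86), MT1F (-0.71) and MT1E (-0.58). MT2A was at 332, 346 and 371 CPM with Cnsi and 187, 205 and 187 CPM with PD-L1si. The zinc exporter SLC30A1, in the same list, had -0.0068 ± 0.06. Scaled by relative log expression, the medians of the interferon, NF-κB and TNF, ATF4 and metallothionein lists were -0.68, -0.93, -0.50 and -0.64, of the same sign, although this scaling shifts all genes nearly alike.

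In glycolysis 4 of 33 genes were called lower and 1 higher (12.1% and 3.03%, against 5.6% and 2.87% of all genes). At an unadjusted p under 0.05, 22 were lower and 4 higher, with a median of -0.21. The summed level of the list was 17900, 17600 and 17100 CPM with Cnsi and 14200, 14600 and 14100 CPM with PD-L1si. SLC2A1, the glucose transporter GLUT1, was at 1873, 1916 and 1897 CPM with Cnsi and 1178, 1220 and 1139 CPM with PD-L1si, a change of -0.69 ± 0.04 (adjusted p = 1.37e-16). HK1, which phosphorylates glucose, was at 208, 208 and 203 CPM with Cnsi and 142, 139 and 137 CPM with PD-L1si (-0.57 ± 0.04). HK2, its inducible relative, had -0.18 ± 0.05 and was not called, and the enolase ENO2 was lower (-0.67 ± 0.04). LDHB, the lactate dehydrogenase subunit, rose, at 14.7, 15.4 and 14.5 CPM with Cnsi and 22.2, 22.0 and 21.7 CPM with PD-L1si (0.56 ± 0.09). Of 36 hypoxia-inducible factors and their targets 10 were called lower and 2 higher (27.8% and 5.56%, against 5.6% and 2.87% of all genes). At an unadjusted p under 0.05, 26 were lower and 3 higher, with a median of -0.36. NDRG1, one of the most abundant of these, was at 4739, 4711 and 4699 CPM with Cnsi and 2690, 2784 and 2672 CPM with PD-L1si (-0.80 ± 0.04). CA12, a carbonic anhydrase, had -0.70 ± 0.04 and STC1 -0.78 ± 0.04. CA9, the carbonic anhydrase used as a marker of VHL loss, moved the other way and gave 19, 19 and 17 counts with Cnsi and 63, 46 and 40 counts with PD-L1si, a change of 1.34 ± 0.22. NDUFA4L2, another gene typical of this tumour, gave 46, 50 and 61 counts with Cnsi and 27, 28 and 19 counts with PD-L1si, a change of -1.17 ± 0.21. EPO gave 4, 3 and 4 counts with Cnsi and 0, 2 and 1 counts with PD-L1si.

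Of 32 fatty acid and lipid droplet genes, 3 were called lower (9.38%, against 5.6% of all genes) and 0 higher (4 higher and 17 lower at an unadjusted p under 0.05, 0 higher by DESeq2). PLIN2, which coats lipid droplets, was at 806, 799 and 800.3 CPM with Cnsi and 341, 359.6 and 354 CPM with PD-L1si, a change of -1.19 ± 0.04 (adjusted p = 5.95e-23). G0S2, an inhibitor of the lipase that opens those droplets, was at 29.1, 32.7 and 30.3 CPM with Cnsi and 6.06, 4.29 and 5.09 CPM with PD-L1si, a change of -2.56 ± 0.11 (adjusted p = 9.65e-15). DGAT2, which makes triglycerides, had -0.57 ± 0.11, and without Cnsi replicate 3 or PD-L1si replicate 1 it was -0.49 and not called. CD36 gave 1, 5 and 10 counts with Cnsi and 16, 8 and 4 counts with PD-L1si. In cholesterol synthesis 1 of 27 was called lower (3.7%, against 5.6% of all genes), and HSD17B7 had 0.42 ± 0.07. At an unadjusted p under 0.05 this list had 13 higher and 5 lower, with a median of 0.061. Of 25 genes of glutamine and glutamate 4 were called lower and 1 higher (16% and 4%, against 5.6% and 2.87% of all genes). SLC7A11, the cystine and glutamate exchanger, was at 88.8, 92.8 and 92.9 CPM with Cnsi and 52.5, 51.2 and 49.0 CPM with PD-L1si (-0.85 ± 0.05). GPT2 (-0.55), PSAT1 (-0.57) and SLC38A5 (-0.65) were lower, and the glutamate transporter SLC1A3, called higher, gave 12, 11 and 15 counts with Cnsi and 22, 24 and 24 counts with PD-L1si and lost its call by DESeq2 (0.81, adjusted p = 0.0932). SLC1A5, the main glutamine importer, had -0.38 ± 0.04 and was not called.

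Tryptophan and NAD genes held 1 called higher (4%, against 2.87% of all genes) and 0 lower of 25 (5 higher and 7 lower at an unadjusted p under 0.05, 0 lower by DESeq2). TDO2, which opens the tryptophan ring, was at 2.75, 2.15 and 2.193 CPM with Cnsi and 3.66, 4.21 and 3.74 CPM with PD-L1si (0.70 ± 0.14). IDO1, which does the same step under IFNγ, gave 2, 7 and 1 counts with Cnsi and 2, 2 and 0 counts with PD-L1si. Further along the pathway KMO had -0.062 ± 0.04, AFMID 0.07 ± 0.08, QPRT 0.28 ± 0.05 and NAMPT -0.44 ± 0.04, none called. CD38 gave 0, 0 and 0 counts with Cnsi and 0, 1 and 0 counts with PD-L1si. In the TCA cycle 1 of 30 was called lower (3.33%, against 5.6% of all genes), PCK2 (-0.83 ± 0.05). Called higher were 0 (9 higher and 9 lower at an unadjusted p under 0.05, 0 higher by DESeq2), with PDHB at 0.42 ± 0.06. Of 17 genes of the pentose phosphate and hexosamine routes 1 was called lower (5.88%, against 5.6% of all genes). The called gene was GFPT2 (-0.94 ± 0.13), and RPE had 0.018 ± 0.05. Oxidative phosphorylation had 0 of 45 called by edgeR (17 higher and 2 lower at an unadjusted p under 0.05, 0 by DESeq2), between -0.25 ± 0.36 for NDUFV2 and 0.34 ± 0.04 for ATP5F1A. Mitochondrially encoded genes had 0 of 13 called (0 higher and 1 lower at an unadjusted p under 0.05, 0 by DESeq2), and their summed level, 31500, 33200 and 38800 CPM with Cnsi and 24800, 28300 and 33600 CPM with PD-L1si, overlapped between the groups. MT-ND2 and MT-ND3 marked its ends with -0.46 ± 0.20 and -0.041 ± 0.14. Of 25 NRF2 targets 2 were called lower (8%, against 5.6% of all genes), SLC7A11 and OSGIN1 (-0.58). Called higher was 1 (4%, against 2.87%), AKR1C3, an aldo-keto reductase. It was at 78.5, 72.6 and 69.2 CPM with Cnsi and 101, 110.5 and 112 CPM with PD-L1si.

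Immediate early factors fell in 11 of 34 cases and rose in 2 (32.4% and 5.88%, against 5.6% and 2.87% of all genes), with a median of -0.29. ATF3, a stress-induced repressor, was at 17.4, 19.7 and 20.7 CPM with Cnsi and 7.33, 9.22 and 7.80 CPM with PD-L1si, a change of -1.26 ± 0.08 (adjusted p = 3.18e-15). JUNB, a subunit of AP-1, had -0.91 ± 0.05, KLF6 -0.77 ± 0.04 and the phosphatase DUSP1 -0.64 ± 0.04. ETV4 gave 3, 4 and 2 counts with Cnsi and 8, 8 and 6 counts with PD-L1si, and NR4A3 1, 0 and 1 counts with Cnsi and 0, 0 and 0 counts with PD-L1si. Apoptosis regulators were called lower in 8 and higher in 1 of 34 (23.5% and 2.94%, against 5.6% and 2.87% of all genes). XIAP, which inhibits caspases, was at 56.7, 58.3 and 54.7 CPM with Cnsi and 28.0, 27.4 and 27.8 CPM with PD-L1si, a change of -1.03 ± 0.05 (adjusted p = 1.74e-17), and CFLAR, which blocks caspase-8, had -0.57 ± 0.04. BMF, a BH3-only protein that promotes cell death, was the gene called higher, at 6.10, 6.28 and 6.46 CPM with Cnsi and 20.4, 19.1 and 20.4 CPM with PD-L1si, with 1.67 ± 0.08 (adjusted p = 1.29e-18). BCL2A1 gave 5, 3 and 5 counts with Cnsi and 1, 2 and 1 counts with PD-L1si.

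YAP1, the coactivator of the Hippo pathway, was itself lower, at 126, 124 and 119 CPM with Cnsi and 53.8, 53.5 and 55.3 CPM with PD-L1si, a change of -1.18 ± 0.05 (adjusted p = 5.59e-19). Of 25 Hippo-YAP genes 6 were called lower (24%, against 5.6% of all genes) and 0 higher (8 higher and 10 lower at an unadjusted p under 0.05, 0 higher by DESeq2). Their median was -0.0022 by TMM and 0.0067 by relative log expression. ANKRD1 was at 28.1, 28.6 and 29.1 CPM with Cnsi and 13.9, 13.3 and 13.9 CPM with PD-L1si (-1.06 ± 0.06) and F3, the tissue factor, at 29.3, 34.0 and 36.1 CPM with Cnsi and 11.6, 12.7 and 12.0 CPM with PD-L1si (-1.46 ± 0.10). GADD45B had -0.70 ± 0.04, MYOF -0.51 ± 0.04, a call lost with other filters, and CCN2, a classic YAP target, 0.48 ± 0.09 without a call. In PI3K, AKT and mTOR signalling 4 of 37 were called lower and 2 higher (10.8% and 5.41%, against 5.6% and 2.87% of all genes). The regulatory subunits PIK3R1 (0.64) and PIK3R3 (0.78) were higher and EIF4EBP1 (-0.76), RRAGA (-0.54) and RRAGD (-1.07) lower. Growth factor genes had 4 higher and 4 lower of 37 (10.8% each, against 2.87% and 5.6% of all genes). IGFBP3, a carrier of insulin-like growth factors and the gene of this list with the highest CPM, was at 3042, 3267 and 3126 CPM with Cnsi and 1513, 1501 and 1439 CPM with PD-L1si, a change of -1.08 ± 0.04 (adjusted p = 4.78e-22). IGFBP4 and FGFR2 were higher (0.76 ± 0.05 and 0.77 ± 0.06), and the receptor TYRO3 lower (-0.57 ± 0.06). HGF gave 0, 0 and 0 counts with Cnsi and 0, 1 and 1 counts with PD-L1si.

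In the TGF-β and BMP list 5 of 32 were called lower and 3 higher (15.6% and 9.38%, against 5.6% and 2.87% of all genes). TGFBR1, a receptor of the pathway, had -0.64 ± 0.06 and INHBB -1.10 ± 0.07, whereas the inhibitor SMAD6 had 0.52 ± 0.06 and the ligand TGFB3 1.12 ± 0.21. FST gave 0, 1 and 0 counts with Cnsi and 0, 0 and 0 counts with PD-L1si. The Wnt list had 4 called lower and 1 higher of 28 (14.3% and 3.57%, against 5.6% and 2.87% of all genes). At an unadjusted p under 0.05 it had 9 higher and 5 lower, with a median of 0.069. The receptor FZD8 (-0.90 ± 0.05), DKK3 (-0.55), TCF7 (-0.62) and LEF1 (-1.10) were called lower. The ligand WNT5B was called higher (0.75 ± 0.17). TCF7 was at -0.50 without PD-L1si replicate 2 and lost its call. Notch genes split, with 2 higher and 2 lower of 18 (11.1% each, against 2.87% and 5.6% of all genes). JAG1, a Notch ligand, was at 33.6, 33.8 and 34.2 CPM with Cnsi and 64.0, 65.6 and 63.2 CPM with PD-L1si, a change of 0.92 ± 0.05 (adjusted p = 1.14e-17). HES1, a repressor that Notch induces, was at 2.23, 2.94 and 2.59 CPM with Cnsi and 6.13, 7.03 and 7.09 CPM with PD-L1si, a change of 1.38 ± 0.12 (adjusted p = 3.27e-11). LFNG, which modifies the receptor, had -0.71 ± 0.04 and HES4 -0.65 ± 0.09. DNER gave 1, 1 and 0 counts with Cnsi and 1, 0 and 0 counts with PD-L1si.

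Matrix genes and proteases were called lower in 10 and higher in 1 of 53 (18.9% and 1.89%, against 5.6% and 2.87% of all genes), with a median of -0.21. LAMB3, a laminin chain of the basement membrane, was at 42.4, 47.0 and 46.9 CPM with Cnsi and 11.2, 12.1 and 10.7 CPM with PD-L1si, a change of -2.005 ± 0.06 (adjusted p = 5.26e-23). COL6A1, a collagen chain, was at 44.8, 46.1 and 45.7 CPM with Cnsi and 17.8, 18.1 and 19.7 CPM with PD-L1si (-1.30 ± 0.07), and the protease PLAU had -0.96 ± 0.04. LAMA4 gave 4, 4 and 1 counts with Cnsi and 2, 7 and 8 counts with PD-L1si. Epithelial and mesenchymal genes had 4 higher and 4 lower of 33 (12.1% each, against 2.87% and 5.6% of all genes). The junction genes CDH1 and CLDN2 were higher (0.96 ± 0.13 and 0.92 ± 0.05), and CLDN1 (-0.90), CD44 (-0.80) and ITGA3 (-0.61) were lower. Complement and coagulation had 8 lower and 6 higher of 28 (28.6% and 21.4%, against 5.6% and 2.87% of all genes). C1S, a protease of the classical pathway, was at 32.1, 33.5 and 34.6 CPM with Cnsi and 10.3, 10.4 and 10.7 CPM with PD-L1si (-1.67 ± 0.06), and its partner C1R had -1.18 ± 0.09. C3, the central component, had -0.54 ± 0.04, and SERPINE2 -0.95 ± 0.05. C4A gave 22, 20 and 20 counts with Cnsi and 61, 64 and 91 counts with PD-L1si (1.70 ± 0.20), which is uncertain because its reads can be shared with the near-identical C4B.

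Of 34 O-glycan and fucosylation enzymes 4 were called lower (11.8%, against 5.6% of all genes) and 0 higher (4 higher and 16 lower at an unadjusted p under 0.05, 0 higher by DESeq2). The chondroitin sulfotransferases CHST11 (-1.13) and CHST15 (-0.62) were among them, while CHST2 had 0.031 ± 0.08. GALNT18, also called lower, gave 36, 33 and 34 counts with Cnsi and 28, 20 and 23 counts with PD-L1si, and FUT1, the last of the called genes, gave 6, 3 and 9 counts with Cnsi and 2, 0 and 3 counts with PD-L1si. The calls of GALNT18 and FUT1 were lost when single libraries were left out. ST6GALNAC3 gave 0, 2 and 3 counts with Cnsi and 7, 6 and 4 counts with PD-L1si. Lysosome and autophagy genes were called lower in 5 of 41 (12.2%, against 5.6% of all genes) and higher in 0 (5 higher and 23 lower at an unadjusted p under 0.05, 0 higher by DESeq2). OPTN, a receptor for autophagy, was at 214, 212 and 222 CPM with Cnsi and 109, 109 and 106 CPM with PD-L1si (-0.997 ± 0.04). ATP6V1B2, a subunit of the proton pump, had -0.95 ± 0.04, the cholesterol exporter NPC1 -0.66 ± 0.04 and the kinase ULK1 -0.84 ± 0.06, while the pump subunit ATP6V1A had 0.32 ± 0.05 without a call. In endocytosis and trafficking 2 of 36 were called lower (5.56%, against 5.6% of all genes). At an unadjusted p under 0.05, 22 were lower and 4 higher. The called genes were EHD2 (-1.06 ± 0.05), which stabilises caveolae, and RAB27A (-0.63 ± 0.05), and SNX5 had 0.15 ± 0.05.

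Among coding genes called with a mean of at least 1 CPM and no overlap of the groups, the 12 raised furthest began with DDC, the aromatic amino acid decarboxylase, at 0.758, 0.954 and 0.439 CPM with Cnsi and 2.54, 3.16 and 2.96 CPM with PD-L1si, a change of 1.99 ± 0.22 (adjusted p = 3.59e-09). GSTA1 and GSTA2, glutathione transferases of proximal tubule and liver, had 1.78 ± 0.23 and 1.67 ± 0.25, values that are uncertain because the genes are near-identical. CYP26B1, which clears retinoic acid, gave 36, 35 and 25 counts with Cnsi and 124, 81 and 127 counts with PD-L1si (1.69 ± 0.17). GPRC5C, an orphan receptor, was at 3.95, 3.86 and 3.87 CPM with Cnsi and 11.8, 13.4 and 12.2 CPM with PD-L1si (1.68 ± 0.09, adjusted p = 1.65e-16). AIF1L, an actin-binding protein, was at 12.9, 12.3 and 12.4 CPM with Cnsi and 37.0, 39.2 and 39.5 CPM with PD-L1si, a change of 1.62 ± 0.06 (adjusted p = 1.39e-20). The remaining genes were KLHL14 (1.73), TFEC (1.67), PALMD (1.55) and ANXA13 (1.54), with C4A and BMF given above. Of 21 markers of renal tubule and ccRCC, 3 were called higher, among them LHX1 (0.80 ± 0.09) and CA9, and 2 lower, NDUFA4L2 and CA12. That makes 14.3% higher and 9.52% lower, against 2.87% and 5.6% of all genes. With at least 1 CPM and no overlap of the groups, the coding genes lowered furthest began with PAPPA2, a protease of IGF-binding proteins, which gave 106, 162 and 172 counts with Cnsi and 29, 18 and 26 counts with PD-L1si (-2.68 ± 0.22), and AQP9, a water and glycerol channel, at 8.10, 9.11 and 9.69 CPM with Cnsi and 1.69, 1.30 and 1.42 CPM with PD-L1si (-2.59 ± 0.13). APCDD1L gave 137, 132 and 134 counts with Cnsi and 34, 38 and 28 counts with PD-L1si (-2.10 ± 0.16).

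Among non-coding genes LINC01764 gave 88, 71 and 70 counts with Cnsi and 21, 7 and 12 counts with PD-L1si (-2.60 ± 0.23) and UCA1, an lncRNA first described in bladder carcinoma, 316, 270 and 233 counts with Cnsi and 59, 40 and 59 counts with PD-L1si (-2.46 ± 0.13). SLCO4A1-AS1 was at 39.7, 42.4 and 48.5 CPM with Cnsi and 10.9, 13.6 and 12.4 CPM with PD-L1si (-1.83 ± 0.13) and ENSG00000248187 gave 90, 84 and 76 counts with Cnsi and 25, 26 and 26 counts with PD-L1si (-1.78 ± 0.18). BMF-AS1, antisense to BMF, gave 21, 9 and 15 counts with Cnsi and 65, 44 and 58 counts with PD-L1si, a change of 1.79 ± 0.23, in the direction of BMF. Antisense values are less certain, because the counting used the forward strand while the library kit usually yields the reverse one, although 95.1% of the counts of these libraries lay on protein-coding genes.

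Genes of RNA sensing and of the RNA silencing machinery were called higher in 2 and lower in 1 of 23. These are shares of 8.7% and 4.35%, against 2.87% and 5.6% of all genes. AGO2, the slicer of RNA interference, was at 57.9, 60.8 and 62.6 CPM with Cnsi and 95.7, 85.4 and 84.3 CPM with PD-L1si (0.55 ± 0.05), and its partner TNRC6B at 28.8, 29.98 and 31.9 CPM with Cnsi and 50.2, 41.6 and 41.1 CPM with PD-L1si (0.55 ± 0.07), which fell short of the threshold at 0.47 without PD-L1si replicate 1. IFIH1, the RNA sensor MDA5, was at 21.9, 22.4 and 21.8 CPM with Cnsi and 12.7, 12.0 and 12.4 CPM with PD-L1si (-0.83 ± 0.07). Housekeeping lists held few calls. Mitosis genes had 0 of 58 called by edgeR (16 higher and 9 lower at an unadjusted p under 0.05, 0 by DESeq2), from -0.44 ± 0.05 for UBE2S to 0.26 ± 0.06 for MAD2L1. DNA replication had 3 called lower and 1 higher of 62 (4.84% and 1.61%, against 5.6% and 2.87% of all genes). At an unadjusted p under 0.05 the list had 35 lower and 7 higher, with a median of -0.17. Its summed level was 5530, 5480 and 5300 CPM with Cnsi and 4900, 4970 and 4870 CPM with PD-L1si. By gene, MCM2 (-0.71), CDK4 (-0.59) and CHAF1B (-0.52) were lower and CDKN2C, an inhibitor of CDK4, higher (0.53 ± 0.05). CHAF1B was at -0.48 to -0.50, and not called, without Cnsi replicate 1, PD-L1si replicate 2 or PD-L1si replicate 3. Ribosomal protein genes had 0 of 61 called (51 higher and 0 lower at an unadjusted p under 0.05, 0 by DESeq2), with a median of 0.16 by TMM and 0.17 by relative log expression, from RPS15A at -0.091 ± 0.05 to RPS10 at 0.39 ± 0.27. Core transcription and splicing genes had 0 of 30 called (8 higher and 3 lower at an unadjusted p under 0.05, 0 by DESeq2), with CDK9 at -0.24 ± 0.05 and HNRNPA1 at 0.32 ± 0.04. Of 11 histone genes 1 was called lower (9.09%, against 5.6% of all genes). H2BC8 gave 5, 2 and 7 counts with Cnsi and 10, 12 and 6 counts with PD-L1si.

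Of the 29 tested genes that are named in the study, 11 were called lower (37.9%, against 5.6% of all genes) and 0 higher. This list was drawn up on these samples and so is no independent evidence of direction. At an unadjusted p under 0.05, 1 was higher and 17 lower, with 0 higher by DESeq2 and a median of -0.44. Of those not yet given, MAPK8IP2, a kinase scaffold, gave 68, 66 and 50 counts with Cnsi and 28, 18 and 29 counts with PD-L1si (-1.38 ± 0.20), the GTPase RHEBL1 had -0.66 ± 0.15, and FGF14 gave 11, 12 and 12 counts with Cnsi and 4, 2 and 5 counts with PD-L1si (-1.72 ± 0.47). TNFAIP6, a hyaluronan-binding protein, had -0.33 ± 0.07 and was not called. FGA gave 14, 20 and 17 counts with Cnsi and 28, 17 and 33 counts with PD-L1si, TRIB2 16, 23 and 22 counts with Cnsi and 29, 16 and 25 counts with PD-L1si, FCER1G 1, 6 and 3 counts with Cnsi and 3, 3 and 4 counts with PD-L1si and ALOX12B 4, 3 and 3 counts with Cnsi and 1, 3 and 2 counts with PD-L1si, and the groups overlapped in each of these.

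The same siRNA contrast under IFNγ, in 6 other libraries labelled A498, called 911 of 20916 genes higher (4.36%) and 1202 lower (5.75%). Called in both and in the same direction were 260 higher genes, 43.3% of the set without IFNγ and 28.5% of the set with it, and 590 lower genes, 50.3% and 49.1%, with 5 in opposite directions. The interaction of siRNA and IFNγ was called for 513 genes (2.45%). Of the 1773 genes called without IFNγ, 215 were called in the interaction, and 148 of these were lower without IFNγ with a more positive siRNA effect under it, a split that the choice of genes by the subtracted contrast favours. Among interferon-stimulated genes 24 of 64 were called lower under IFNγ, with 16 called in the interaction, all with a more positive effect. GBP1 had -1.30 without IFNγ and -0.30 under it, an interaction of 1.00. OAS2 had -2.50 and -0.59, an interaction of 1.91. Among NF-κB and TNF targets 28 of 45 were called lower under IFNγ, and in the interaction 8 had a more positive and 1 a more negative effect. ICAM1 had -1.57 and -0.73, an interaction of 0.85 that was called. TNFAIP3 had -2.03 and -1.57, with an interaction of 0.46 that was not called. CD274 had -2.47 and -2.81, and its interaction, -0.34, was not called (adjusted p = 0.348). The genes with the largest interactions by the same filters were AACSP1, NRAD1, FLRT3, TFEC, ENSG00000263443 and OAS2. NRAD1, an lncRNA, had 1.23 and 3.96, and the pseudogene AACSP1 0.87 and 4.03. ENSG00000263443 gave 32, 41 and 35 counts with Cnsi and 34, 20 and 21 counts with PD-L1si and lost its call without IFNγ by DESeq2 (-0.61, adjusted p = 0.163) and when any of 4 libraries was left out.

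In libraries labelled 786-O the siRNA without IFNγ called 252 of 21209 genes higher (1.19%) and 345 lower (1.63%). The lines were sequenced on different instruments, so line and instrument cannot be told apart, and 1475 genes with over 1000 counts in the libraries labelled A498 were listed at 0 in all 12 labelled 786-O, so lines were compared over 17999 genes counted in both. Over these genes 69 were higher in both, 13.5% of the first set and 32.2% of the second, and 146 lower in both, 14.7% and 48.3%, with 9 in opposite directions. The siRNA effect differed between the lines at 806 genes (4.48%). For interferon-stimulated genes 36 of 58 differed, all with a more positive effect in libraries labelled 786-O, where the list had a median of 0.0048. For NF-κB and TNF targets 19 of 33 differed in the same way. TNFAIP3 had -2.03 labelled A498 and -0.041 labelled 786-O, and IL6 -2.42 and 0.30. CD274 fell in both, by 2.47 and by 1.42 on the log2 scale, a difference of 1.06 (adjusted p = 0.00189). In all 3 siRNA comparisons 154 genes were called in the same direction, 42 higher and 112 lower, and CD274, BMF-AS1, NRAD1, AACSP1, G0S2 and FLRT3 had the largest mean changes. FLRT3, an adhesion protein, had 0.96, 3.31 and 0.998, and G0S2 -2.56, -2.14 and -0.63. BMF had 1.67, 1.65 and 1.43, and YAP1 -1.18, -1.44 and -1.13.

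**Figure D4:**
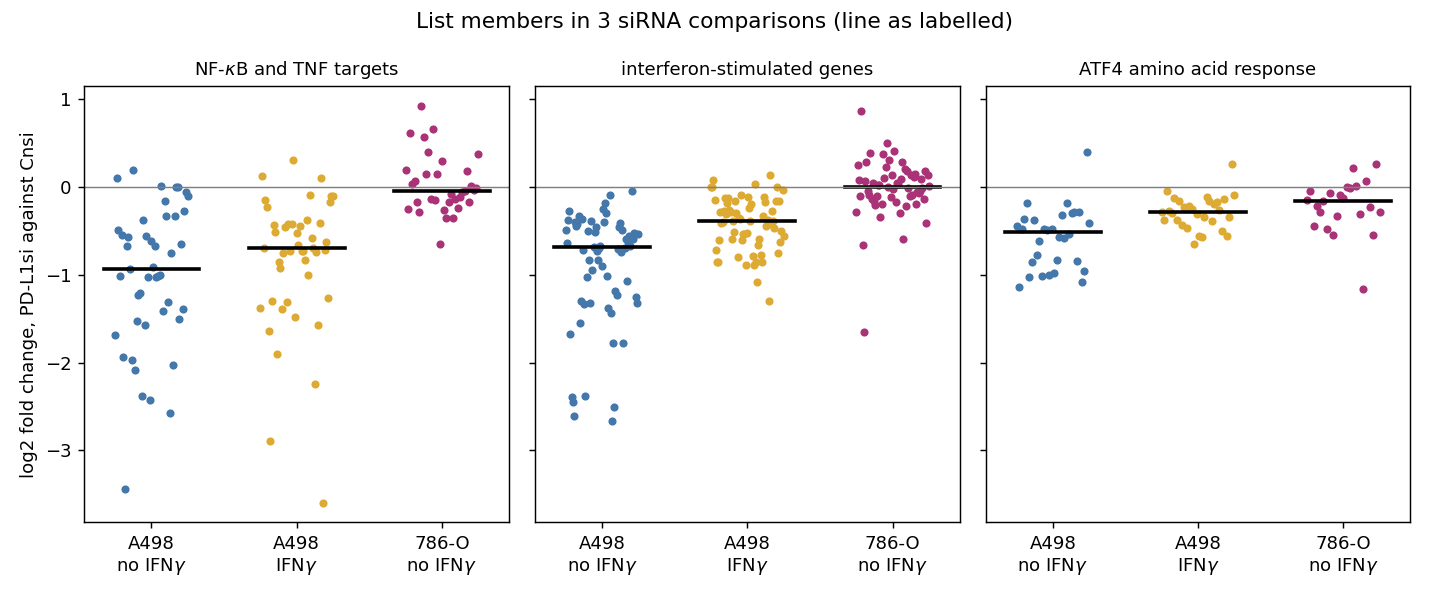
Log2 fold change of PD-L1si against Cnsi for members of the NF-κB and TNF list, the interferon list and the ATF4 list, each point 1 gene, in libraries labelled A498 without IFNγ, labelled A498 with IFNγ and labelled 786-O without IFNγ, with the median as a black line. The interferon list has a median of -0.69 without IFNγ and -0.38 with it in libraries labelled A498, and lies near 0 in those labelled 786-O.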

How the data were processed

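RNA from 24 libraries, 3 per group, was sequenced by the authors, who trimmed reads with Trimmomatic 0.36.6, aligned them to GRCh38 with HISAT2 2.1.0 and counted them on GENCODE 33 genes with featureCounts 1.6.3 in stranded mode. The deposited table holds raw counts of 39321 genes, without normalization, and 39148 were matched to GENCODE 44 for names and positions. Genes with at least 10 counts summed over a group were tested, after TMM scaling, in R 4.3.3 with edgeR 4.0.16 (quasi-likelihood, robust, one mean for each of 4 groups in 12 libraries, 8 residual degrees of freedom). Benjamini-Hochberg adjustment covered all genes tested. DESeq2 1.42.0 and other scalings, filters, thresholds, a replicate block and left-out libraries were alternatives. Within a group, libraries differed by more than sampling noise (chi-square per degree of freedom 1.63 to 4.63), and whether any share their RNA or preparation was not tested. The standard error includes the spread between libraries.

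Gene lists were described by counts and medians. The members and lists were chosen with earlier results of these data known. Named were CD274, the genes named in the study, the 12 raised and 12 lowered coding genes called with the largest change, at least 1 CPM and no overlap of the groups, the 5 such non-coding genes, up to 4 called members with the smallest p and both ends of each list, and 6 genes each of the interaction and of those called in all 3 comparisons. Which of these got fuller values or a comment was decided after their values were seen. Results of a few genes that the rule takes are not reported here, though counts over lists and over all genes include them.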

Additional observations from a re-analysis of the deposited data

Results flagged for a closer look

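Of 224 genes of the naming rule considered here, 48 had a siRNA effect that differed between the libraries labelled A498 with and without IFNγ, by the interaction test of edgeR, 43 with a more positive effect under IFNγ and 5 with a more negative one, beside 513 of all 20916 genes tested (2.45%), 378 positive and 135 negative. The rule takes genes mostly for their change without IFNγ, which the interaction subtracts, and 6 for the interaction itself, so the selection favours differences and, as most were lowered, positive ones. The difference of log2 fold changes, with IFNγ minus without, stands in parentheses after each gene given. Among cytokines and NF-κB or TNF targets, the effect was more positive under IFNγ for BIRC3 (0.86), CXCL1 (1.16), CXCL8 (1.07), ICAM1 (0.85), IL6 (0.94), SAA1 (1.45) and TNFRSF9 (0.79). More positive under IFNγ among interferon-stimulated, JAK-STAT, antigen presentation and checkpoint genes were CXCL10 (1.54), GBP1 (1), HLA-DPA1 (4.04), ICOSLG (0.84), IRF1 (0.65), IRF7 (0.82), MX2 (1.58), OAS1 (1.12), OAS2 (1.91), PSMB9 (0.96), TAP1 (0.57) and WARS1 (0.75). Among stress, immediate early and metabolic genes, the effect was more positive under IFNγ for AKR1C3 (0.89), ALDH1L2 (0.77), AQP9 (1.15), ATF3 (0.67), DDIT3 (0.54), JUNB (0.52), KMO (0.67), NDUFA4L2 (1.11), OPTN (0.51), PLIN2 (0.57), STC1 (0.78), STC2 (0.52) and TRIB3 (0.62). More positive under IFNγ among matrix, adhesion, complement and trafficking genes were C1R (0.74), CDH1 (1.3) and CLDN2 (1.34). Among other named genes, the effect was more positive under IFNγ for AACSP1 (3.16), ENSG00000263443 (2.04), FGF14 (1.84), FLRT3 (2.35), IGFBP3 (1.16), KLHL14 (1.79), NRAD1 (2.73) and PAPPA2 (1.2). More negative under IFNγ were AIF1L (-0.83), C4A (-1.15), CX3CL1 (-1.05), SLC30A1 (-0.6) and TFEC (-2.19). HLA-DPA1 gave 1, 2 and 5 counts with Cnsi and 0, 0 and 0 with PD-L1si without IFNγ, so its value depends on the small count added in the fit.

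Between the lines, 77 of the 185 named genes counted in both differed in their siRNA effect without IFNγ, 60 with a more positive effect in libraries labelled 786-O and 17 with a more negative one, beside 806 of all 17999 genes (4.48%), 581 positive and 225 negative. Here too the genes were chosen mostly for their change in the contrast that is subtracted, which favours differences opposite in sign to that change. The values are log2 fold changes labelled 786-O minus labelled A498. More positive in libraries labelled 786-O, among cytokines and NF-κB or TNF targets, were CXCL1 (2.23), CXCL8 (3.05), ICAM1 (1.43), IL6 (2.73), SAA1 (2.36), TNFAIP3 (2), TNFAIP6 (0.52) and TRAF1 (1.36). For interferon-stimulated, JAK-STAT, antigen presentation and checkpoint genes, the same held for CD274 (1.06), CXCL10 (3.26), GBP1 (1.17), HLA-F (0.66), ICOSLG (0.83), IFIH1 (0.84), IRF1 (0.94), IRF7 (1.53), MX2 (2.08), OAS3 (1.4), PSMB9 (1.02), SOCS2 (0.96), TAP1 (0.58) and WARS1 (0.84). More positive in libraries labelled 786-O, among stress, immediate early and metabolic genes, were ALDH1L2 (1), AQP9 (2.05), ATF3 (1.4), DDIT3 (0.54), EIF4EBP1 (0.67), G0S2 (1.94), GADD45A (0.66), GADD45B (0.62), GFPT2 (0.79), JUNB (0.73), MT2A (1.04), OPTN (1.01), PCK2 (0.74), PLIN2 (0.9), RRAGD (0.9), STC1 (0.66) and STC2 (0.86). For matrix, adhesion, complement and trafficking genes, the same held for C1R (0.99), C1S (0.89), C3 (1.17), CHST11 (0.52), CHST15 (0.76), CLDN1 (0.85), EHD2 (0.81), F3 (1.58), GALNT18 (0.78), ITGA3 (0.77), LAMB3 (1.81) and PLAU (1.33). More positive in libraries labelled 786-O, among other named genes, were ENSG00000248187 (1.87), FGF14 (2.32), FZD8 (0.56), IGFBP3 (0.75), INHBB (0.58), LFNG (0.59), MAPK8IP2 (0.76), SLCO4A1-AS1 (1.13) and TCF7 (0.59). More negative in libraries labelled 786-O were AIF1L (-0.94), AKR1C3 (-0.51), CDKN2C (-0.57), CLDN2 (-0.5), CYP26B1 (-1.59), DDC (-1.5), DNAJB4 (-0.7), GPRC5C (-1.36), HES1 (-1.15), JAG1 (-0.55), KLHL14 (-1.83), LDHB (-0.67), PALMD (-1.2), PIK3R1 (-0.66), RGS5 (-1.06), TDO2 (-0.57) and TFEC (-1.57).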

How the results depend on the processing

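CD274 kept its direction and its call, from -2.62 to -2.36 when single libraries were left out. With the adjusted p alone, 6452 genes were called without IFNγ (2675 higher, 3777 lower), 7122 under IFNγ, 1900 in the interaction, 2721 in libraries labelled 786-O and 2176 for the difference between lines. With a log2 fold change over 1 these were 553 (181 higher, 372 lower), 601, 119, 145 and 263. Leaving out 1 library gave 1598 to 1667 calls, 520 to 600 higher and 1019 to 1140 lower. DESeq2 called 408 higher and 980 lower. The replicate number as a block gave 607 higher and 1177 lower genes, and the numbers were not taken as pairs, since the correlations of same-numbered libraries were -0.079, 0.0366 and 0.0385. Over all named genes and alternatives, a call was lost 142 times, 87 of them at the log2 threshold of 1, and gained 33 times. The sign turned 16 times and the value became 0 a further 2 times, each for a gene without a call and close to 0 or with few counts: SLC30A1 (-0.0068 as reported) was 0.0025 with DESeq2, 0.0021 with relative log expression, 0.0083 with filterByExpr, 0.013 with protein-coding genes alone, 0.011 with the 6 libraries alone, 0.025 without Cnsi replicate 1, 0.057 without PD-L1si replicate 1. TRIB2 (0.11 in the main edgeR fit) was -0.042 without Cnsi replicate 1, -0.019 without PD-L1si replicate 1. FCER1G (-0.087 in the main fit) was 0.61 without Cnsi replicate 2, 0.04 without PD-L1si replicate 1. FST (-1.83 in the main fit, from 1 count against 0) was 0 without Cnsi replicate 2. MT-ND3 (-0.041 as reported) was 0.067 without Cnsi replicate 3, 0.039 without PD-L1si replicate 1. ESAM (-0.091 in the main fit) was 0.27 without Cnsi replicate 3, 0.078 without PD-L1si replicate 2. CD38 (1.76 in the main fit, also from 1 count against 0) was 0 without PD-L1si replicate 2. THY1 (-0.14 as reported) was 0.14 without PD-L1si replicate 3. The values furthest from those of the main fit, with the sign kept, were 0.2559 for TRIB2 without PD-L1si replicate 2, -0.5075 for FCER1G and -0.1028 for MT-ND3 without Cnsi replicate 1, 2.2209 for CD38 and -0.3686 for THY1 without PD-L1si replicate 1, -0.0244 for SLC30A1 and -0.2404 for ESAM without Cnsi replicate 2, and -2.2685 for FST without Cnsi replicate 1. FST and CD38 had too few counts for a fold. A value of 0 came from libraries without a count of the gene. The cause was not tested. With counts under about 10 per library, only large changes could be detected.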

Other observations

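The gene with identifier ENSG00000112096.18, which was not matched to a name in the annotation used, was singled out after its values were seen. It gave 24813, 25897 and 25563 counts with Cnsi and 7988, 6480 and 7590 counts with PD-L1si, a log2 fold change of -1.88 ± 0.05 (adjusted p = 1.44e-22 by edgeR).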
